A study of Mus musculus with 10 samples.

Results

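The comparison is of 2 mesenchymal mammary tumour cell lines of the mouse, M1 and M2, over every gene the arrays measured. Its members are the 2 arrays of M1 and the 2 arrays of M2, chosen by the sample labels, 4 of the 10 arrays of the study. M1 and M2 are relapsed lines 1 and 2, each grown from a tumour that came back in a female FVB/N mouse after E cells had been injected. E is the parent epithelial line, from a mammary adenocarcinoma of a female FVB/N-TgN(MMTVneu)202Mul mouse, whose neu oncogene is driven by the mouse mammary tumour virus promoter; E and the other relapsed lines, M3 and M4, have 2 arrays each. No line was given a drug or other treatment per the labels, and all were cultured alike in RPMI medium with serum, so M1 and M2 share the parent line, the mouse strain and the medium and differ in the tumour they came from. Each line stands for 1 tumour. The labels do not say whether the 2 arrays of a line were separate cultures, so p-values measure only the spread between arrays, which may be technical.

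Epithelial cells hold to their neighbours through cadherins, claudins and keratin-anchored junctions. In the epithelial-mesenchymal transition (EMT), driven by transcription factors of the Snail, Zeb and Twist families, these genes are shut down and vimentin, matrix proteins and motility genes come on. The comparison of M1 with M2 asks how far 2 mesenchymal lines from different tumours, both from E, lie apart.

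Values are probe set signals on a linear scale, brought to 1 common distribution over the 10 arrays. A difference is the mean log2(signal + 32) of M1 minus that of M2, with its standard error (SE) and 2 arrays a line, so 1 unit is 2-fold and a positive value is higher in M1. Because 32 was added to each signal, differences of genes near background are understated. A gene is called, and only then described as higher in a line, when its Benjamini-Hochberg adjusted p from limma over 14840 genes was under 0.05 and the difference was at least 2-fold.

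The arrays of M1 correlated at 0.994 with each other over all genes, as did those of M2, while arrays of M1 against M2 stood at 0.965 to 0.966. Before normalization the trimmed mean signal was 252 and 249 on the M1 arrays and 272 and 214 on the M2 arrays, and Actb, a check of RNA integrity, had a 3' over 5' ratio of 1.16 on both M1 arrays and of 1.22 and 1.25 on the M2 arrays. The panel of epithelial and mesenchymal genes matched the label mesenchymal in part. Epcam, an epithelial adhesion molecule, had signals of 4.2 and 2.6 in M1 and 2.3 and 4.6 in M2, against a mean of 9498 in E. Cdh1, the epithelial cadherin, had a mean of 16.1 in M1 and 39.5 in M2, against 3036 in E. The gene of vimentin, Vim, was at 15050 and 14758 in M1 and at 14814 and 14536 in M2, a difference of 0.02 ± 0.03, but E was already at 8743. Cdh2, the mesenchymal cadherin, had a mean of 6.5 in E and 1081 or more on each array of M1 and M2. Krt8, a keratin of simple epithelia, went against the label in M2, with a mean of 8003 against 7215 in E.

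Of the 14840 genes, 656 were called (4.42%). Of these, 273 were higher in M1 (1.84%) and 383 higher in M2 (2.58%). These shares are the background for each list count below. The median difference of all genes was 0.01. At least 4-fold differences numbered 40 in favour of M1 and 81 in favour of M2, and at least 16-fold differences 2 and 14. All 656 genes that lay at least 2-fold apart passed the adjusted p, the largest of which was 0.0372, and for none of them did the arrays of the lines overlap. Over all genes tested, both M1 arrays lay above both M2 arrays in 33.6% and below them in 32.2%. Without the fold minimum, 5431 genes passed (36.6%), 2667 higher in M1 (18.0%) and 2764 higher in M2 (18.6%). Many of the called genes were off or nearly off in 1 line: 82 of the 273 higher in M1 had a signal under 32 in M2, and 120 of the 383 higher in M2 had one under 32 in M1. At the other end, 149 and 172 of them had a signal of 100 or more in the line where they were lower. By the same count of genes at least 2-fold apart, M1 and M2 differed at 4.42% of genes, M2 and M4 at 4.16%, M1 and M4 at 6.13%, M1 and M3 at 9.64%, E and M1 at 19.6% and E and M2 at 18.8%.

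**Figure D1:**
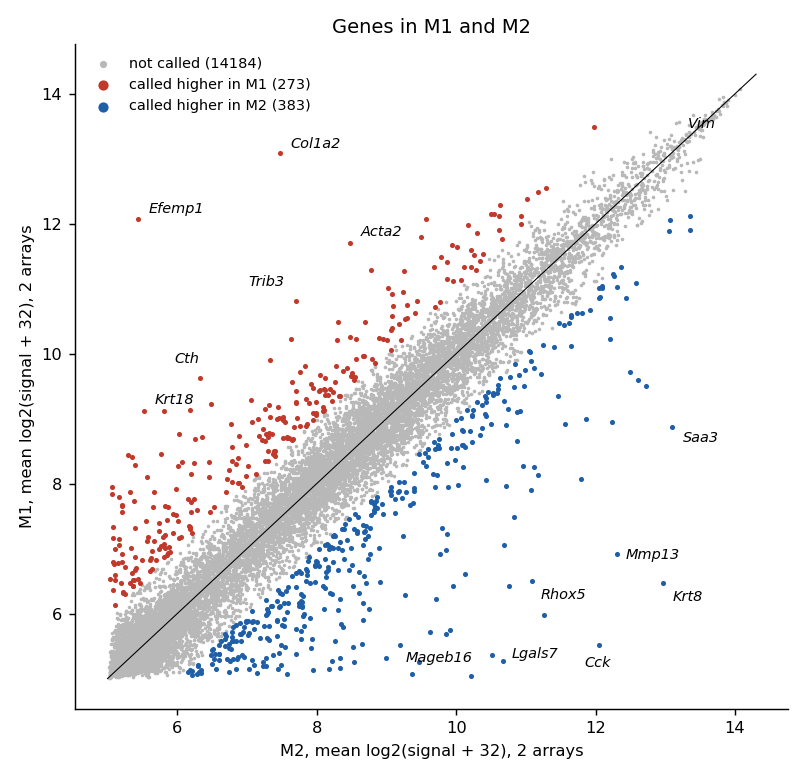
Mean log2(signal + 32) of each of 14840 genes in M2 (x axis) and M1 (y axis), 2 arrays a line; the black line marks equal levels, red points are the 273 genes called higher in M1 and blue points the 383 called higher in M2. Efemp1 and Col1a2 stand farthest above the line, and Cck and Krt8 farthest below it.

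The keratin partners Krt8 and Krt18 went in opposite directions. They encode the type II and type I keratins that pair into the filaments of simple epithelia, and they are neighbours on chromosome 15. Krt8 had signals of 46.7 and 67.3 on the M1 arrays and 8311 and 7694 on the M2 arrays, a difference of -6.50 ± 0.09 (limma, adjusted p = 7.64e-14). Krt18 had 512 and 533 in M1 and 7.7 and 20.9 in M2, a difference of 3.60 ± 0.13 (limma, adjusted p = 4.81e-10). The arrays of the lines were far apart for both genes. E had both partners, with means of 7215 for Krt8 and 11706 for Krt18. M3 and M4 resembled M2, with 6229 and 5456 for Krt8 and 7.6 and 5.53 for Krt18, so that no mesenchymal line had a high signal of both. All 3 probe sets of Krt8 were called, at -6.61 to -6.50, and Krt18 had 1 probe set. The genes on the outer sides of the pair were not called: Krt79 stood at 0.04 and Eif4b at 0.20.

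The promoters of this pair are shown because the 2 genes are neighbours that moved apart. They are the RefSeq sequences of mouse build GRCm38.p6, from 250 bases before to 50 bases after the transcript start, with every CG dinucleotide in capitals, the pair of letters at which mammalian DNA is methylated. Krt8 lies on the minus strand at chr15:102004293-102004592 and holds 6 CG. Krt18 lies on the plus strand at chr15:102027966-102028265 and holds 17, and the median over the 11895 genes tested that have a promoter sequence was 19. Methylation was not measured here.
Krt8: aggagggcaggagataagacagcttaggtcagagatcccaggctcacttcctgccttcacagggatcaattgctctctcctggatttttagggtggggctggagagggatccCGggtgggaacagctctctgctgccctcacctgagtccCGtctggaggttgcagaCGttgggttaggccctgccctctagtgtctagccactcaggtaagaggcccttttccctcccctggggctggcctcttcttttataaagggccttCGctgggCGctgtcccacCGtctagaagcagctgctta
Krt18: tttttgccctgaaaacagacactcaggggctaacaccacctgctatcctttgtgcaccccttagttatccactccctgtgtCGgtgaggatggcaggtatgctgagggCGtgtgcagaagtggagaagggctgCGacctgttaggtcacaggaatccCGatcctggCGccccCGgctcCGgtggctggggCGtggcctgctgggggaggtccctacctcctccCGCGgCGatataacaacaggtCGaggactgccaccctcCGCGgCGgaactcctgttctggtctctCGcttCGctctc

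The 15 largest differences in favour of M1 were of mixed kinds, and 4 of them were matrix or contractile genes: Efemp1, Col1a2, Acta2 and Myl9. Efemp1, which encodes the extracellular matrix protein fibulin-3, had 4531 and 4041 in M1 and 14.8 and 8.2 in M2, a difference of 6.64 ± 0.18 (limma, adjusted p = 4.03e-11). It was the largest difference of the comparison in that direction, and E, M3 and M4 were at 5.29, 5.98 and 13.6, all as low as M2. Col1a2, the alpha-2 chain of type I collagen, had 8596 and 8679 in M1 and 143.5 and 148 in M2, a difference of 5.61 ± 0.08 (limma, adjusted p = 1.55e-13). M4 resembled M1 for this gene, with a mean of 7941, and M3 resembled M2, with 109. Its partner chain Col1a1 was not called, with 1192 and 1086 in M1 and 661 and 677 in M2, a difference of 0.74. Col1a2 had 3 probe sets, all called, at 1.91 to 5.61. Pdgfc, a growth factor for PDGF receptors, had 525 and 518 in M1 and 27.4 and 20.9 in M2 (3.30 ± 0.09). Others among the 15 largest were Cbr1 (3.15), a carbonyl reductase, the RNA-binding protein genes Mbnl3 (3.06) and Khdrbs3 (2.90), Stbd1 (2.95), which encodes a glycogen-binding protein, Scrn1 (2.89), Tmem45a (2.77) and Ctla2a (2.73). Khdrbs3 had a signal of 207 and 225 in M1 and at most 1.75 as a mean of any other line. Mbnl3 was also on in E, at 540, and at or under 11.2 on the M2 arrays.

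The largest differences in favour of M2 were of mixed kinds too. Cck, which encodes the peptide hormone cholecystokinin, had 7.5 and 21.0 in M1 and 4151 and 4281 in M2, a difference of -6.54 ± 0.17 (limma, adjusted p = 3.89e-11). Its mean was 168 in M3 and 127 in M4, so the M2 arrays were the highest of the 5 lines. Lgals7, which encodes galectin-7, stood at -5.40 ± 0.11, and Cldn9, a claudin of tight junctions, at -5.28 ± 0.12. Slc14a1, a urea transporter, had 1.4 and 0.4 in M1 and 1188 and 1112 in M2 (-5.17 ± 0.14), with means of 16.4 in M3 and 12.3 in M4. Vnn1, a pantetheinase, followed at -4.34, Padi4, which converts arginine to citrulline in proteins, at -4.30, Syt7, a synaptotagmin of vesicle fusion, at -4.21 and Naalad2 at -4.16. Of the 4 probe sets of Syt7, 3 were called and 1 stood at 0.26. Lgals7, Cldn9 and Syt7 were also high in M3 and M4, at means of 421 to 1439.

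**Figure D2:**
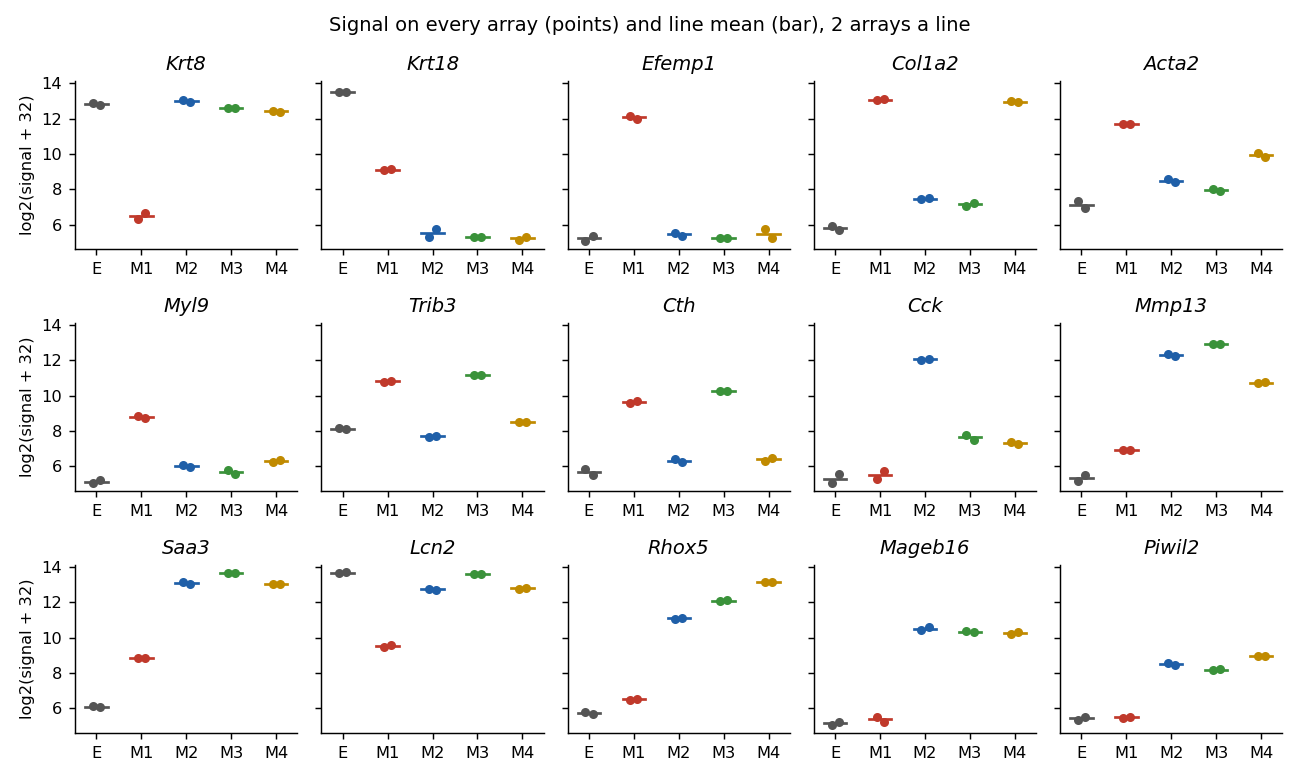
log2(signal + 32) of 15 genes on each of the 10 arrays (points) with the mean of each line (bar), 2 arrays a line. The 2 arrays of a line lie close together; Krt8, Saa3, Rhox5, Mageb16 and Piwil2 are low in M1 and high in M2, M3 and M4, while Trib3 and Cth are high in M1 and M3.

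The broadest shared difference was in genes of amino acid supply and the integrated stress response. In this response, cells short of amino acids or with unfolded proteins slow general translation and raise the transcription factor ATF4, which with partners such as CHOP turns on amino acid synthesis, transport and tRNA charging genes. Of 48 such genes tested, 28 were higher in M1 and 0 in M2, against 1.84% and 2.58% of all genes, with a median difference of 1.20. The list was put together after values of these arrays had been seen, so its count is a description and carries no independent weight.

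Trib3, a pseudokinase that restrains this response, had 1728 and 1816 in M1 and 170 and 181 in M2 (3.12 ± 0.06; limma, adjusted p = 3.77e-12). Chac1, a glutathione-degrading enzyme, had 2423 and 2435 in M1 and 547 and 606 in M2 (2.02 ± 0.06). Ddit3, the gene of CHOP, had 1745 and 1631 in M1 and 610 and 577 in M2 (1.46 ± 0.07); its call was lost, at 0.69, when its probe sets were averaged. The regulators Atf5 (1.5), Atf3 (1.47) and Nupr1 (1.54), the mTOR inhibitor gene Ddit4 (1.64) and Ppp1r15a (1.20), which restores translation, were also higher in M1. Atf4 itself was not called, with 7053 and 7041 in M1 and 4373 and 3557 in M2, a difference of 0.83.

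Enzymes made up a second group. Cth, which makes cysteine, had 730 and 794 in M1 and 52.4 and 44.4 in M2 (3.30 ± 0.12; limma, adjusted p = 7.48e-10). Asns, the asparagine synthetase gene, had 5975 and 5938 in M1 and 2392 and 2565 in M2 (1.25 ± 0.04). Psph (1.73), the last step of serine synthesis, and the mitochondrial one-carbon enzymes Shmt2 (1.36), Mthfd2 (2.00) and Aldh1l2 (1.83) were higher in M1, as were Bcat1 (2.31), Gpt2 (2.19) and Pck2 (1.72). The earlier serine enzymes Phgdh (0.54) and Psat1 (0.77) were below the 2-fold minimum, and cytosolic Shmt1 stood at 0.12.

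Transporters and tRNA synthetases completed the list. Slc7a5, the large neutral amino acid transporter, had 2497 and 2461 in M1 and 422 and 391 in M2 (2.52 ± 0.06). Slc7a11 (1.41), which imports cystine, Slc6a9 (1.14), a glycine transporter, and Slc7a1 (1.01), which imports cationic amino acids, were higher in M1 too, with Slc7a1 at the edge of the fold minimum and under it without M1 replicate 1 or M2 replicate 2, both at 1.0. Slc3a2, the shared heavy chain, stood at 0.78 and Slc38a2 at 0.03. Of the tRNA synthetase genes, Wars (1.31) and Gars (1.20) were called, and Aars, Iars, Lars, Sars, Eprs, Mars1 and Nars had differences of 0.45 to 0.81. Further members higher in M1 were Gadd45a (2.59), Adm2 (2.35), Herpud1 (1.26), Vldlr (1.22) and Stc2 (1.19). In all, 46 of the 48 differences were above 0; Cebpb (-0.33) and Slc7a3 (-0.34) were not.

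For these 28 genes M3 lay nearer to M1 in 27, whereas M4 lay nearer to M2 in 25 and E nearer to M2 in 23. Trib3 had a mean of 2263 in M3 against 329 in M4 and 249 in E. The exceptions in E included Slc7a5, whose mean of 4018 in E was above that of M1. Over all 273 genes higher in M1, M3 was nearer to M1 in 36.6%. Cell density, medium age and harvest day were not given for single arrays, and their part in the difference was not tested.

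**Figure D3:**
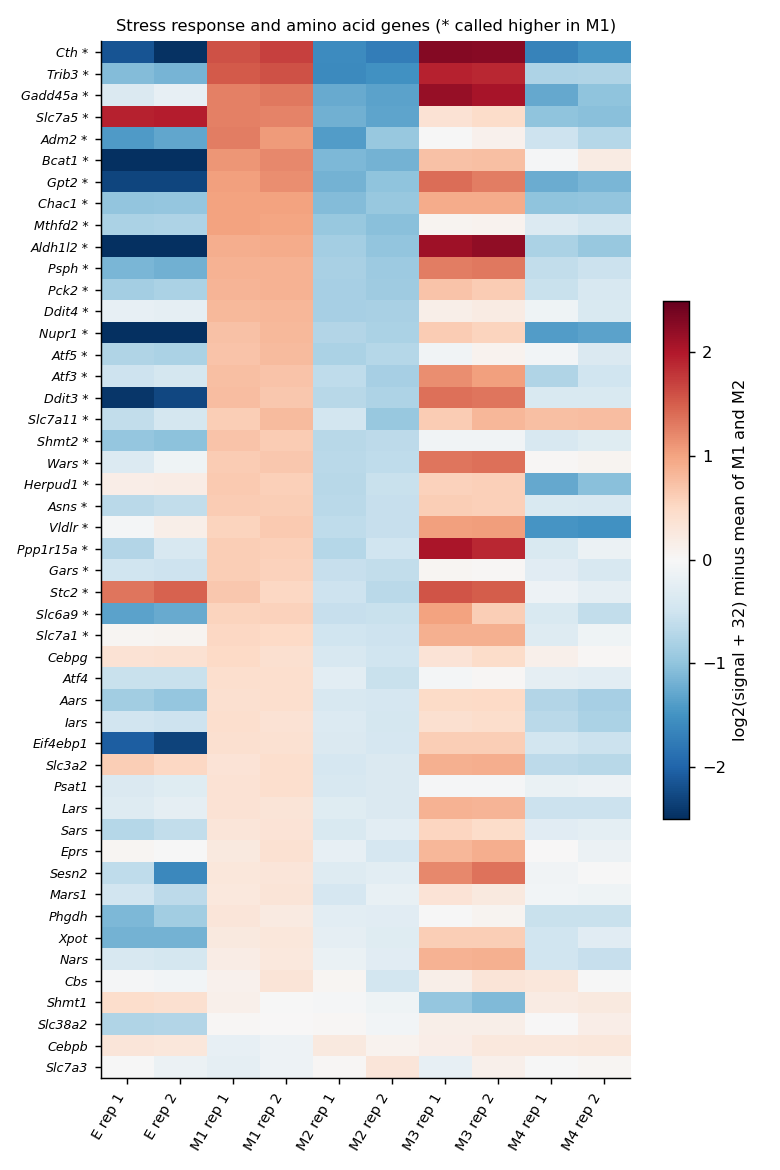
log2(signal + 32) of 48 amino acid and stress response genes (rows, from the highest to the lowest difference between M1 and M2) on the 10 arrays (columns), each row relative to the mean of M1 and M2, so red is above and blue below that mean; colours end at 2.5. The 28 called genes carry an asterisk; the M1 and M3 columns are mostly red and the M2 and M4 columns mostly blue.

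The promoters of Trib3, Chac1 and Asns are shown because these genes moved together and each holds 1 match to TGATGNAAN, the C/EBP-ATF composite element through which ATF4 and CHOP act; N is any base, both strands were searched, and the match is in capitals. A promoter sequence was found for 24 of the 28 called genes, and 9 of them (37.5%) held a match: Atf3, Trib3, Chac1, Asns, Pck2, Slc7a11, Herpud1, Nupr1 and Gars. Of 16 promoters of list members not called, 2 held one (12.5%), those of Aars and Iars, and of all 11895 promoters 300 did (2.5%). The promoter of Ddit3, also a called member, held 0 matches. Because the list holds genes of a response that acts through this element, its share above all promoters carries no independent weight. A match is a description of the letters, and known elements can lie outside this window. The windows, in GRCm38.p6, are chr2:152344011-152344310 on the minus strand for Trib3, chr2:119350992-119351291 on the plus strand for Chac1 and chr6:7693160-7693459 on the minus strand for Asns.
Trib3: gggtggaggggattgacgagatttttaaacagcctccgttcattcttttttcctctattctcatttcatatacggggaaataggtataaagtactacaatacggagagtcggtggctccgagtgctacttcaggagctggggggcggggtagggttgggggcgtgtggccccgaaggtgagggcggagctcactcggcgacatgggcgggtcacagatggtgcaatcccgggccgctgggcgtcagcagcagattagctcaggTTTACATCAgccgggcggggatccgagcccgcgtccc
Chac1: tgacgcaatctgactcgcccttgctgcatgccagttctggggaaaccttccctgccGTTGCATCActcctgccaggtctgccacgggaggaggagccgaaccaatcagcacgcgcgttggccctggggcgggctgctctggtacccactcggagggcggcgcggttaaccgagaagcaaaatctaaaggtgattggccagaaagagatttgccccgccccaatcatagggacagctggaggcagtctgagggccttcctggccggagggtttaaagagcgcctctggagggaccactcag
Asns: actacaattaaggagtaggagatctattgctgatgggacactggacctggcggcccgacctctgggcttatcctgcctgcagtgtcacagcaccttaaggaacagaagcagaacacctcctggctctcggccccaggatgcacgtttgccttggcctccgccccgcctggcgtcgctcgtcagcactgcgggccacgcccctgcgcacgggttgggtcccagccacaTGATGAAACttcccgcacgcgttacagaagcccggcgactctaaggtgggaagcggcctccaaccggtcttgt

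Genes of glycolysis and hypoxia leaned towards M1. Cells turn these on through the factor HIF-1 when oxygen falls. Of 29 tested, 9 were higher in M1 (31.0%) and 2 in M2 (6.9%), against 1.84% and 2.58% of all genes, and the median was 0.39. P4ha2, a collagen prolyl hydroxylase, had 1425 and 1369 in M1 and 424 and 346 in M2 (1.78 ± 0.09). Ndrg1, a stress-induced gene, stood at 1.71 ± 0.13, with 5 of 5 probe sets called, and Pfkl, a phosphofructokinase, at 1.66 ± 0.06. Bnip3, which acts in mitophagy, had 3129 and 3212 in M1 and 987 and 1011 in M2 (1.64 ± 0.05). Car9, the acid-handling carbonic anhydrase, Hk2, Pdk1, P4ha1 and Vldlr were higher in M1 by 1.22 to 1.54. Those higher in M2 were Ldhb (-1.55) and the glucose transporter gene Slc2a3 (-1.09). Slc2a3 had 3.1 and 6.9 in M1 and only 42.5 and 51.2 in M2. Its call was lost with a pseudocount of 64 (-0.68), with a floor of 64 (0.0) and with probe sets averaged (-0.57). Not called were Vegfa (0.13), Ldha (0.39), Pgk1 (0.18), Hif1a (0.44) and Slc2a1 (0.64), so the difference did not cover all known hypoxia targets. The letters ACGTG, the core of the HIF site, searched on both strands, occurred in 5 of 8 promoters of the called M1 members, in 10 of 17 of the members not called and in 24.3% of all promoters. M3 and M4 were each nearer to M1 in 5 of the 9 genes.

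Contractile genes, where called, were higher in M1. Of 26 actomyosin and smooth muscle genes, 5 were higher in M1 (19.2%, against 1.84% of all genes) and 0 in M2. The median was 0.49, and 2 members leaned to M2 at an unadjusted p under 0.05. Acta2, smooth muscle actin, had 3254 and 3340 in M1 and 344 and 306 in M2 (3.22 ± 0.11; limma, adjusted p = 4.53e-10). M4 was intermediate at 951, M3 was at 221 and E at 108. Myl9, the myosin regulatory light chain, had 423 and 387 in M1 and 34.8 and 31.5 in M2 (2.74 ± 0.14). The focal adhesion genes Zyx (1.12) and Pdlim7 (1.3) and the actin-bundling Csrp1 (1.08) followed, and Tpm1, a tropomyosin, stood at 0.90. The call of Zyx was lost at 0.47 when its 2 probe sets were averaged. Acta1, the skeletal actin, was higher in M1 too (1.31), while Myod1 and Myog, regulators of skeletal muscle, had mean signals of at most 21.5 in both lines. M3 was nearer to M2 for all 5 genes, and M4 for 4. An exact match to the CArG box, the site of serum response factor (CCWWWWWWGG, W being A or T), was found in 1 of the 5 promoters, Myl9. It occurred in 3 of 19 promoters of the members not called (15.8%) and in 1.3% of all promoters. The Acta2 window had 0 exact matches but holds ccctatatgg and ccttgtttgg, each 1 base from the pattern. The count therefore does not show that the other called genes lack such a site.

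The matrix list split between the lines. Of 33 fibrillar matrix and matricellular genes, 6 were higher in M1 (18.2%) and 5 in M2 (15.2%), with a median of -0.08. Over all genes the shares were 1.84% and 2.58%. Besides Col1a2, M1 had more Col6a3 (1.91 ± 0.08), Ccn4 (1.57), Col5a2 (1.23), Ccn2 (1.16) and Fbln2 (1.05; 0.97 without M2 replicate 2). M2 had more Mgp, the matrix Gla protein that restrains calcification, with 168 and 128 in M1 and 1705 and 1865 in M2 (-3.34 ± 0.09), and more Col6a2 (-1.45), Thbs1 (-1.42), Mfap5 (-1.19) and Dcn (-1.16). Col6a2 and Col6a3, which both encode chains of type VI collagen, thus went opposite ways. For the matrix genes higher in M1, M4 was nearer to M1 in 5 of 6 and M3 nearer to M2 in 5 of 6. Basement membrane genes were called in 1 direction: 4 of 16 were higher in M2 and 0 in M1, where 1 member leaned at an unadjusted p under 0.05. They were Col4a6 (-2.76 ± 0.15), Lama5 (-1.3), Col18a1 (-1.26) and Lamb3 (-1.16; -0.91 with a pseudocount of 64). Fn1, fibronectin, was not called at 0.82, with 6213 and 6093 in M1 and 3587 and 3355 in M2.

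Matrix-degrading enzymes were among the highest genes of M2. Mmp13, collagenase-3, had 89.9 and 88.2 in M1 and 5260 and 4775 in M2 (-5.38 ± 0.09; limma, adjusted p = 4.83e-13), with 7867 in M3, 1687 in M4 and 8.48 in E. Mmp3, stromelysin-1, had 723 and 759 in M1 and 6136 and 6258 in M2 (-3.01 ± 0.06), and Mmp10, stromelysin-2, stood at -2.11 ± 0.12. The stromelysins were not the same across lines: Mmp3 was 317 in M3 and 4812 in M4. M1 had more Adam8 (1.47) and Adamts5 (1.14; 0.96 without M2 replicate 2), a sheddase and an aggrecan-cleaving protease. Of 27 proteases and inhibitors tested, 2 were higher in M1 (7.41%) and 3 in M2 (11.1%), against 1.84% and 2.58% of all genes. Mmp2 stood at 0.21 and the inhibitor gene Timp1 at 0.55.

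Among 17 integrin subunits, 1 was higher in M1 (5.88%) and 4 in M2 (23.5%), against 1.84% and 2.58% of all genes. Itga5, which pairs with beta-1 to bind fibronectin, had 846 and 849 in M1 and 312 and 319 in M2 (1.34 ± 0.10). Itga8 had 212 and 221 in M1 and 1660 and 1629 in M2 (-2.75 ± 0.06), and Itgb8 (-1.56), Itgb4 (-1.51), the hemidesmosome subunit, and Itgb7 (-1.28) were also higher in M2.

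Secreted defence and chemokine genes, where called, were mostly higher in M2. Of 20 secreted innate defence and acute phase genes, a list chosen after values were seen, 8 were higher in M2 and 0 in M1 (0 also at an unadjusted p under 0.05), and the median was -0.41. Saa3, an acute phase serum amyloid, had 433 and 435 in M1 and 9059 and 8355 in M2 (-4.23 ± 0.05; limma, adjusted p = 7.64e-14), and M3 and M4 were as high, at 12914 and 8366, with E at 35.8. Lcn2, lipocalin-2, which binds bacterial siderophores, had 671 and 718 in M1 and 6818 and 6671 in M2 (-3.22 ± 0.04). The M1 arrays were the lowest of the 5 lines for this gene, with E at 12984. Chil1, a chitinase-like protein, stood at -4.17 ± 0.11, S100a8, a calprotectin subunit, at -3.72 ± 0.08, Wfdc2 at -2.85, Hp at -1.69, Cp at -1.59 and Slpi at -1.23. S100a9, the partner of S100a8, was at 7.4 or lower on these 4 arrays. M3 was nearer to M2 in 7 of the 8 genes and M4 in 6.

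Of 32 cytokines and chemokines, 7 were higher in M2 (21.9%) and 3 in M1 (9.38%), against 2.58% and 1.84% of all genes. Csf3, which encodes the granulocyte growth factor G-CSF, had 262 and 236 in M1 and 2234 and 2314 in M2 (-3.04 ± 0.05). The monocyte chemokine genes Ccl8 (-2.03), Ccl7 (-1.98) and Ccl2 (-1.01) went the same way, with Ccl2 at 4258 and 4208 in M1 and 8083 and 9079 in M2; Ccl2 was -0.93 without M2 replicate 2 and -0.81 under the deposited scaling. Tnf (-1.63), Cxcl16 (-1.61) and Il1a (-1.58) were also higher in M2, with signals of Tnf no higher than 110 on these arrays. M1 had more Ccl9 (2.26 ± 0.14), Cxcl12 (1.89 ± 0.13), the ligand of CXCR4, and Csf2 (1.88 ± 0.11), which encodes GM-CSF, at 512 and 555 in M1 and 133 and 111 in M2. Of 14 leukocyte markers tested 0 were called (limma; 1 leaned to M1 and 2 to M2 at an unadjusted p under 0.05). The summed signal of the 16 on the array was 1172 to 1268 on the 4 arrays, and Ptprc, the pan-leukocyte CD45 gene, was at 17.4 or lower.

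Few interferon or antigen presentation genes were called, and those called were higher in M2. Of 32 interferon response genes 3 were higher in M2, Oas1a (-2.32), Usp18 (-1.37) and Bst2 (-1.05), and 0 in M1, where 7 leaned at an unadjusted p under 0.05; the share for M2 was 9.38%, against 2.58% of all genes. Bst2 lost its call when 1 array was left out, at -0.96 without M1 replicate 1 and -1.0 without M2 replicate 1. Of 17 genes of MHC class I presentation, 1 was higher in M2 (5.88%, against 2.58% of all genes) and 0 in M1. It was the regulator Nlrc5 (-1.27), at -0.96 with a pseudocount of 64 and -0.98 with a floor of 64. At an unadjusted p under 0.05, 8 members leaned to M1 and 5, Nlrc5 among them, to M2 (limma). The median of this list was 0.04, so the list as a whole did not lean to M2.

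The factors best known for EMT were not called, apart from Snai1, and other members of the list were higher in M2. Zeb1 (0.28), Zeb2 (0.01), Snai2 (0.56) and Twist1 (0.49) were not called. Snai2 (limma, adjusted p = 0.000156) and Zeb1 (limma, adjusted p = 0.0353) passed the adjusted p and missed only the fold minimum. Twist1 (limma, adjusted p = 0.0604) and Zeb2 (limma, adjusted p = 0.981) did not pass. Zeb1 had 1291 and 1219 in M1 and 1047 and 1014 in M2, against 9.93 in E. Cdh2 had 1091 and 1081 in M1 and 1557 and 1338 in M2 (-0.40), also below the fold minimum. Snai1 was higher in M1, with 262 and 307 against 73.2 and 93.1 (1.46 ± 0.19). Twist2 (-1.23), Foxc1 (-1.20), Prrx2 (-1.0) and the bHLH inhibitor genes Id2 (-1.57) and Id1 (-1.16) were higher in M2, which gave 1 of 22 members for M1 and 5 for M2, with a median of -0.35. By share, 4.55% of the list were called for M1 and 22.7% for M2, against 1.84% and 2.58% of all genes. Prrx2 was -0.94 without M1 replicate 1. Id2 was under the fold minimum, at -0.98, when its 3 probe sets were averaged.

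Epithelial genes were called in both directions. In the list of 37 adhesion and polarity genes, of which 2.70% were called for M1 and 5.41% for M2 against 1.84% and 2.58% of all genes, F11r (-2.44), a tight junction adhesion molecule, and Cldn1 (-1.59) were higher in M2 and Pkp2 (1.55), a desmosome plakophilin, in M1. All 3 had lower mean signals in M1 and M2 than in E, at 1893, 455 and 889 there. Of 18 luminal genes, Cd24a (-1.20; -0.90 with probe sets averaged) and Ehf (-1.06) were higher in M2 and 0 in M1, where 2 leaned at an unadjusted p under 0.05; Ehf was -0.97 without M1 replicate 1 and -0.96 without M2 replicate 1. Among 15 keratins and other intermediate filament genes, Krt8 and Krt14 were higher in M2 and Krt18 and Nes, the nestin gene, in M1. The difference of Krt14 (-1.07, with signals of 79.2 or lower) was called in 1 of its 3 probe sets, while the others stood at -0.83 and 0.05. Without M2 replicate 1 another probe set was the brightest and stood at 0.13, and it was -0.03 without M2 replicate 2 and -0.91 without M1 replicate 2. Nes (1.02) was 0.90 without M1 replicate 1. Averaging probe sets took Nes to 0.46.

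Of 40 receptor tyrosine kinase and ligand genes, 1 was higher in M1 (Pdgfc) and 4 in M2, 2.5% and 10.0% against 1.84% and 2.58% of all genes. The PDGF axis went opposite ways, with the ligand Pdgfc higher in M1 and both receptor genes higher in M2: Pdgfrb had 371 and 369 in M1 and 2099 and 1601 in M2 (-2.21 ± 0.11), and Pdgfra stood at -1.14 ± 0.09. Averaging probe sets took Pdgfra to -0.76, below the fold minimum. Fgfr3 (-1.34; -0.72 with a floor of 64) and Erbb3 (-1.04) were also higher in M2, and Erbb3 was -0.96 without M1 replicate 2 or M2 replicate 1. With probe sets averaged, 1 member of the list was called for M2. Erbb2, the mouse counterpart of the neu oncogene, was not called, at 162 and 183 in M1 and 133 and 147 in M2 (0.25).

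In TGF-beta and BMP signalling 4 of 33 genes were higher in M2 and 0 in M1, where 4 leaned at an unadjusted p under 0.05. The M2 calls are 12.1%, against 2.58% of all genes. Bmp4, a ligand, had 17.2 and 14.6 in M1 and 287 and 264 in M2 (-2.68 ± 0.15). Fst, the activin inhibitor follistatin, stood at -1.92 ± 0.07, the receptor gene Tgfbr1 at -1.5 and the inhibitory Smad6 at -1.16. Tgfbr1 lost its call, at -0.79, when its 3 probe sets were averaged, and Smad6, at -0.95, with a pseudocount of 64. In Wnt signalling the receptor gene Fzd6 (-2.24 ± 0.08) and the ligand genes Wnt10a (-1.78) and Wnt6 (-1.16) were higher in M2 and the antagonist gene Dkk2 (1.5) in M1, out of 32 tested. Dkk2 had signals of 66.4 and 54.9 in M1 and under 1 in M2, and was 0.95 with a pseudocount of 64 and 0.03 with a floor of 64. Wnt6 was -0.96 with that pseudocount and -0.95 with probe sets averaged. Of the Wnt list 3.12% were called for M1 and 9.38% for M2, against 1.84% and 2.58% of all genes. Notch4 (1.14) was the 1 of 24 Notch and Hedgehog genes called, higher in M1. That is 4.17%, against 1.84% of all genes, and 3 leaned to M2 at an unadjusted p under 0.05. The call of Notch4 was lost with a pseudocount of 64 (0.85), with a floor of 64 (0.80) and with the mean of its 3 probe sets (0.52). Sema5a (-1.59, or -0.89 with probe sets averaged) and Sema3b (-1.49) were higher in M2 among 26 guidance genes. That is 7.69%, against 2.58% of all genes. For M1 there were 0, with 6 leaning there at an unadjusted p under 0.05. No Eph receptor or ephrin gene was called, 0 of 16, with 1 leaning to M1 and 3 to M2 at an unadjusted p under 0.05 (limma).

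Genes of proliferation did not differ by 2-fold. Of 35 cell cycle genes 0 were called, with a median of 0.13. At an unadjusted p under 0.05, 15 leaned to M1 and 5 to M2 (limma). Without the fold minimum, 14 of the 35 passed the adjusted p towards M1 and 4 towards M2 (limma). Over all genes 18.0% and 18.6% did. Mki67, a proliferation marker, had 1573 and 1541 in M1 and 1401 and 1199 in M2 (0.26). Of 26 DNA repair and methylation genes 0 were called, with a median of 0.29. At an unadjusted p under 0.05, 14 leaned to M1 and 2 to M2 (limma). The same counts, 14 and 2, passed the adjusted p without the fold minimum. Sterol and fatty acid synthesis had 0 of 24, with 5 leaning to M1 and 11 to M2 at the same unadjusted threshold (limma). IGF-binding and retinoid genes had 0 of 15, with 5 and 4. Without the fold minimum, 5 and 11 of the sterol list and 3 and 4 of the IGF list passed the adjusted p. Among D cyclins, CDK inhibitors and p53 targets, Gadd45a (2.59) and Cdkn1b (1.12), which encodes the inhibitor p27, were higher in M1 of 25 tested and 0 in M2, where 3 leaned at an unadjusted p under 0.05. Averaging its 2 probe sets took Cdkn1b to 0.53. The 2 calls of this list are 8.0%, against 1.84% of all genes for M1. Of 31 early response genes Atf3, Klf10 (1.19), Myc (1.15) and Ier2 (1.11) were higher in M1 and Egr2 (-1.42) and Dusp6 (-1.03) in M2. Myc had 3001 and 2858 in M1 and 1248 and 1368 in M2. The early response calls are 12.9% for M1 and 6.45% for M2, against 1.84% and 2.58% of all genes.

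Xenobiotic and redox genes differed in both directions. Of 32 tested, 6 were higher in M2 (18.8%) and 2 in M1 (6.25%), with a median of -0.27. Over all genes the shares were 2.58% and 1.84%. Abcg2, a drug efflux pump, had 194 and 212 in M1 and 24.4 and 14.2 in M2 (2.20 ± 0.12), against 1592 in E. Higher in M2 were Abca1 (-1.87), a cholesterol exporter, Gsta4 (-1.76) and Gstt1 (-1.49), glutathione transferase genes, Nqo1 (-1.59) and Hmox1 (-1.08), oxidative stress enzymes, and Abcc4 (-1.17), an efflux pump. Nqo1 had 410 and 388 in M1 and 1276 and 1253 in M2. Slc7a11 (1.41), which also stands in the stress response list, was the other gene higher in M1. Averaging probe sets took Abca1 to -0.80.

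A few genes of the germline, kept silent in most body cells, were higher in M2 and near background in M1. The list, chosen after values were seen, had 39 genes on the array. Of these, 15 passed the filter on low values and the other 24 were not tested. Of the 15, 5 were higher in M2 (33.3%) and 0 in M1, against 2.58% and 1.84% of all genes. At an unadjusted p under 0.05, 1 leaned to M1 (limma). A gene low in M1 could pass the filter through the lines where it was high, so 5 of 15 is only a description. Mageb16, an X-linked cancer-testis gene, had 13.5 and 5.5 in M1 and 1362 and 1495 in M2 (-5.14 ± 0.11; limma, adjusted p = 3.84e-12). Rhox5, an X-linked homeobox gene of the reproductive tract, had 57.4 and 59.1 in M1 and 2061 and 2209 in M2 (-4.58 ± 0.06; limma, adjusted p = 1.02e-13). Syce2, of the synaptonemal complex, had at most 20.9 in M1 and 750 and 763 in M2 (-3.91 ± 0.10). Piwil2, which acts with piRNAs, had 11.9 and 13.3 in M1 and 350 and 322 in M2 (-3.04 ± 0.11). Tdrkh, of the same pathway, stood at -1.64, with 1.6 and 3.4 in M1 and only 69.0 and 82.0 in M2. Its call was lost with a floor of 64, at -0.23. E was as low as M1 in all 5, at 20.7 or lower as a mean, M3 was nearer to M2 in all 5 and M4 in 4. Rhox5 was higher still in M3, at 4348, and M4, at 9009. Of the mesenchymal lines M1 was thus the one with low Mageb16, Rhox5, Syce2 and Piwil2.

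The promoters of Rhox5 and Mageb16 are shown because these X-linked genes were both near background in E and M1 and both high in M2, M3 and M4. CG dinucleotides are in capitals; Rhox5, at chrX:37754358-37754657 on the plus strand of GRCm38.p6, holds 5, and Mageb16, at chrX:79671386-79671685 on the minus strand, holds 6. The 4 called germline genes with a promoter sequence held a median of 12.5 CG, against 19 over all 11895 promoters. They were not all poor in CG, since the promoter of Syce2 held 19. RefSeq promoter sequence was matched for Rhox5, Mageb16, Syce2 and Tdrkh of the 5.
Rhox5: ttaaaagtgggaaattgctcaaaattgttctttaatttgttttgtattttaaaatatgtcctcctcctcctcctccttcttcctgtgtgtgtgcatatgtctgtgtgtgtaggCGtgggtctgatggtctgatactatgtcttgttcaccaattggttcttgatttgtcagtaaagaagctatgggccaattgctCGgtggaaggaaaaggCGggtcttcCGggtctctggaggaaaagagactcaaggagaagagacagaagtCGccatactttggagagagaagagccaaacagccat
Mageb16: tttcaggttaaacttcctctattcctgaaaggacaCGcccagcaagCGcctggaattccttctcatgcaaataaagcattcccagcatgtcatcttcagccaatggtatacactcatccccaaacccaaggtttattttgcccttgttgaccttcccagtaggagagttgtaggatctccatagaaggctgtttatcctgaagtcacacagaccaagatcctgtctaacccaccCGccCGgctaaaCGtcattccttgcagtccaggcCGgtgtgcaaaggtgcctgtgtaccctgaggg

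Hox genes, which record position along the body, were called in both directions. Hoxa7 had 141 and 208 in M1 and 5.4 and 4.5 in M2 (2.46 ± 0.17), and Hoxb9 (1.93) and Hoxb13 (1.3) were also higher in M1, while Hoxa10 (-1.12) was higher in M2, out of 24. E, M3 and M4 lay nearer to M2 for all 3 genes higher in M1. The Hox calls are 12.5% for M1 and 4.17% for M2, against 1.84% and 2.58% of all genes. Hoxa10 lost its call without M1 replicate 1, at -0.99, and Hoxb13 with a pseudocount of 64, at 0.81, and with a floor of 64, at 0.0. Of 17 imprinted genes, expressed from 1 parental copy, Plagl1 (1.67) was higher in M1 and Dcn and Igf2r (-1.07) in M2; Igf2r was -0.97 without M1 replicate 1. Plagl1 was at 751 in E, 78.5 and 74.4 in M1 and 3.0 or lower in the other mesenchymal lines. Xist, the RNA of the inactive X chromosome, had 2125 and 2123 in M1 and 1983 and 2232 in M2 (0.01). Of the S100 and annexin genes, S100a8 was higher in M2 and Anxa8 (1.03) in M1, out of 19; Anxa8 was 0.96 without M2 replicate 2 and 0.99 without M1 replicate 2. Procr (-1.01) and Cd24a were the 2 of 16 stem and progenitor surface markers called, both higher in M2, with 4 leaning to M1 at an unadjusted p under 0.05; Procr was -0.94 without M1 replicate 1 and -0.99 without M2 replicate 1. Cd44, another such marker, was not called (-0.21). Calls for M1 and M2 were 5.88% and 11.8% of the imprinted list and 5.26% each of the S100 and annexin list. In the stem marker list they were 0.0% and 12.5%, and over all genes 1.84% and 2.58%.

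**Figure D4:**
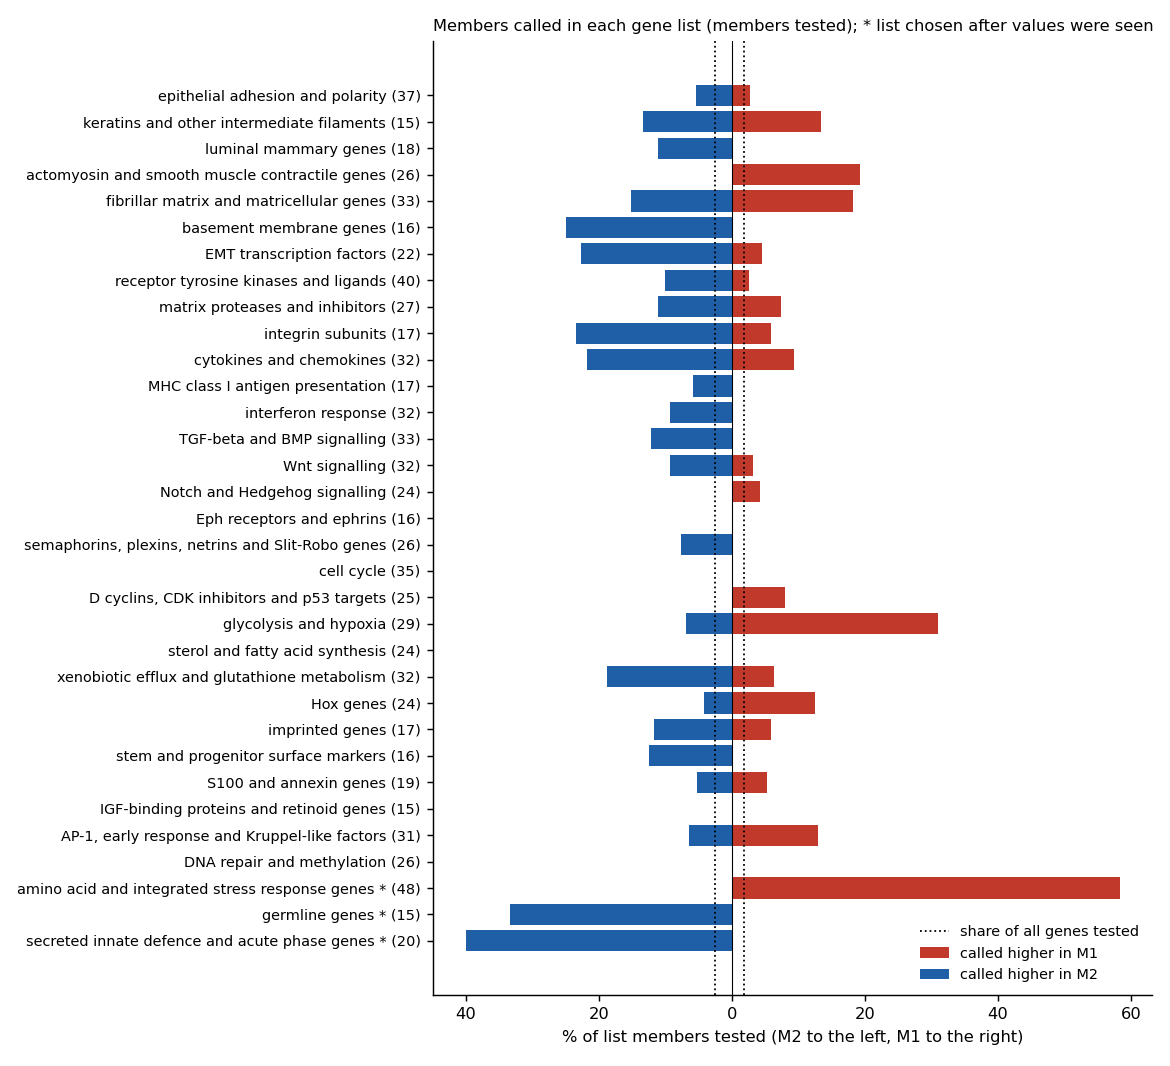
Percent of the members tested in each gene list that were called higher in M1 (red, to the right) or in M2 (blue, to the left), with the number tested in brackets; dotted lines mark the share of all 14840 genes, 1.84% for M1 and 2.58% for M2. Lists with an asterisk were chosen after values were seen. Cell type marker lists are not drawn, and the germline bar covers the 15 of 39 genes that passed the filter. A gene could pass it through the lines where it was high. Of the lists drawn, the longest bars are the stress response list for M1 and the innate defence and germline lists for M2.

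The levels of E, M3 and M4 show which of M1 and M2 had the less common level; these lines shared the normalization, the filter and the fit, but their means are not terms of the difference. Of the 273 genes higher in M1, M4 lay nearer to M2 in 226 (82.8%), E in 204 (74.7%) and M3 in 173 (63.4%). For 140 of them (51.3%) M3 and M4 both lay nearer to M2, as for Efemp1, Krt18, Myl9 and Khdrbs3, and for 14 (5.13%) both lay nearer to M1. Of the 383 genes higher in M2, M3 lay nearer to M2 in 272 (71.0%) and M4 in 248 (64.8%), while E lay nearer to M1 in 262 (68.4%). For 188 of these (49.1%) M3 and M4 both lay nearer to M2, as for Krt8, Saa3, Mageb16 and Rhox5, and for 51 (13.3%) both lay nearer to M1, as for Cck and Slc14a1. In 121 genes (31.6%) E lay with M1, and M3 and M4 with M2.

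The difference was uneven over the chromosomes. Among 8848 genes on chromosomes 1 to 19 and X with a signal of 100 or more in M1 or M2, the median difference was 0.01, but it was 0.34 on chromosome 15, 0.28 on chromosome 6, 0.21 on chromosome 4 and 0.20 on chromosome 16. It was -0.40 on chromosome 18, -0.30 on chromosome 14, -0.18 on chromosome 19 and -0.16 on chromosome 1. On chromosome 15, 81.7% of 372 genes lay above 0, and on chromosome 18, 16.7% of 227 did. Between the 2 arrays of 1 line no chromosome's median moved by more than 0.02, and the 4 pairs of an M1 and an M2 array gave 0.34 to 0.35 for chromosome 15 and -0.39 to -0.38 for chromosome 18.

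Against E, whose arrays both differences share, chromosome 15 stood at 0.61 in M1 and 0.24 in M2, and chromosome 6 at 0.15 and -0.13. Chromosome 18 stood at -0.21 in M1 and 0.12 in M2, and chromosome 14 at -0.17 and 0.14. The calls were uneven too: on chromosome 18, 24 of 373 genes (6.43%) were higher in M2 and 3 in M1, and on chromosome 15, 25 of 604 (4.14%) were higher in M1 and 14 in M2. DNA copy number was not measured here, so gene dose and transcription per copy cannot be told apart.

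Within chromosomes, the most extreme windows of 25 neighbouring genes, picked after their values were seen, are a description. The window from Ccn4 to Scrib on chromosome 15 had a median of 0.63, with 6 genes higher in M1 and 0 in M2, and that from Htra2 to Cct7 on chromosome 6 one of 0.58. The window from Garem1 to Gypc on chromosome 18 stood at -0.55, with 23 of 25 genes below 0, and that from Ap5m1 to Mmp14 on chromosome 14 at -0.45, with 24 of 25. Chromosome 4 held windows of both signs, 0.51 from Msantd3 to Ptbp3 and -0.47 from Hspg2 to Sdhb. A single run of 3 neighbouring tested genes was called in 1 direction: Tspan11 (1.72) and Tspan9 (1.37), tetraspanins, and Tead4 (1.02), a factor of the Hippo pathway, all on chromosome 6 and higher in M1. Tead4 was 0.96 without M2 replicate 2 and 0.98 without M1 replicate 2. Its call was also lost under the deposited scaling (1.0) and scaling to the hybridization controls (0.91). A pseudocount of 64 (0.88) and the mean of its 2 probe sets (0.75) ended it too. Without that call the run falls short of 3 genes.

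**Figure D5:**
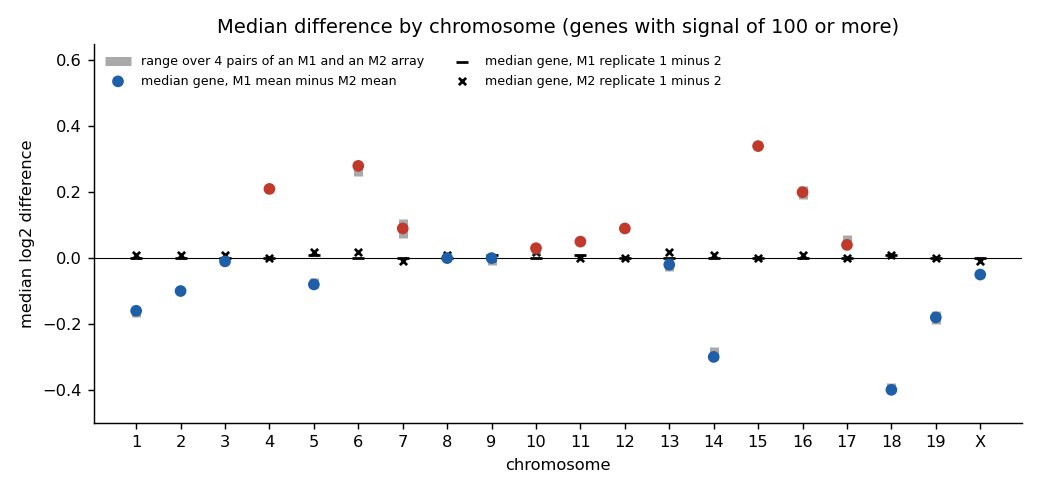
Median log2 difference of M1 minus M2 on each chromosome over genes with a signal of 100 or more (red above 0, blue at or below), with the range over the 4 pairs of an M1 and an M2 array (grey bars) and the medians between the 2 arrays of M1 (dashes) and of M2 (crosses). Chromosome 15 is the highest at 0.34 and chromosome 18 the lowest at -0.40, while the replicate medians stay within 0.02 of 0.

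Markers of other cell types were checked because cells of a host mouse could remain in a line grown from a tumour; in bulk RNA, fewer cells of a type and less RNA per cell cannot be told apart. Of 9 endothelial and 4 adipocyte markers tested, 0 were called (limma; for endothelium 0 leaned to M1 and 2 to M2 at an unadjusted p under 0.05, for adipocytes 0 and 0), and no marker of either list reached a signal of 100. The 14 leukocyte markers tested included 2 above 100 in both lines, Cd14 and Itgb2. Of 11 fibroblast markers tested, Col1a2 was higher in M1 (9.09%) and Pdgfrb, Mfap5, Dcn and Pdgfra in M2 (36.4%). Over all genes the shares were 1.84% and 2.58%. The summed signal of the 13 on the array was 33148 to 33708 on the 4 arrays. Within that sum Col1a2 had means of 8638 in M1 and 146 in M2, and Dcn 3767 and 8469. S100a4, its largest part, had 12425 and 13168. The near-equal sum therefore does not show equal levels of the markers. In the Schwann and neural crest list Tubb3 (1.60) was higher in M1 and Egr2 and Erbb3 in M2, and in the cartilage list Acan (1.54) was higher in M1.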

How the data were processed

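The authors deposited linear intensity values, 1 per probe set and array; the submitters' processing notes name GCOS 1.3. Background handling and scaling were not stated in the sources used here. Of 45101 probe sets, 64 controls were left out, 34945 had 1 gene symbol in the platform annotation, 932 several and 9160 none. From these values each array was quantile normalized, 32 was added and log2 taken. Probe sets had to exceed the 40th percentile of an array on 2 or more arrays, and the brightest remaining one by mean signal stood for its gene, which left 14840 of 18193 genes. limma 3.58.1 in R 4.3.3 fitted 1 mean per line over all 10 arrays (lmFit, eBayes with a trend; 5 residual degrees of freedom), since the 4 arrays alone leave few degrees of freedom. Having 2 arrays a line limits the precision.

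On simulated data with 14904 genes, 95% of 100 genes shifted by 1.5 log2 units and 100% of 100 shifted by 2.5 were recovered, with 2 false calls. Same-numbered arrays of different lines did not deviate together (correlations of -0.03 to 0.03), so replicate numbers were not used as pairs. The 2 arrays of M1 had identical deposited values at 0.591% of probe sets and those of M2 at 0.642%, so they were counted as 2.

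The members and gene lists were chosen with earlier results of these data known. The 118 genes named by rule were 16 panel genes, the 15 highest and 15 lowest differences with separate arrays and a proper gene symbol, up to 4 called members of each list, and runs of neighbouring called genes; other genes named were chosen after their values were seen. Promoters are RefSeq sequences matched by symbol, found for 11895 genes. Alternatives covered normalization, pseudocount, filter, probe set choice, arrays in the fit, replicate block, prior and single arrays left out.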

Additional observations from a re-analysis of the deposited data

How the results depend on the processing

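Under 20 alternatives, 2 of them on the choice of probe set added after seeing the data, the count of 656 called genes ran from 476 with a pseudocount of 64 to 883 with one of 16, and the counts higher in M1 and in M2 also stayed within 1.5 times of 273 and 383. Leaving out single arrays gave 662 to 676 calls. With the replicate number as a block, 656 genes were called, all shared with the fit without it, and the block changed no other call. The share of calls higher in M1 ran from 34.1% with scaling to the hybridization controls to 43.8% with median centring. Of 106 called genes named by rule, 79 were called under every alternative that tested them. Signs changed in 4 genes, 3 of them not called. Krt14 was 0.05 with the brightest probe set by mean log2, the difference of another of its 3 probe sets. It ran from -1.24 to 0.13 with 1 array left out, and without M2 replicate 1 another probe set was chosen. Epcam was 0.01 under the deposited scaling, 0.02 with median centring and ran from -0.05 to 0.04 with 1 array left out. Zeb2 was -0.04 under the deposited scaling and with the mean of probe sets, -0.02 with median centring, -0.12 with scaling to the hybridization controls and ran from -0.14 to 0.15 with 1 array left out. Xist was 0.0 with scaling to the hybridization controls and ran from -0.07 to 0.10 with 1 array left out. It was -0.40 with the mean of its 3 probe sets, which stood at 0.01, -0.58 and -0.63. For Epcam, for Zeb2 and for Xist under the other settings the cause was not tested. Chromosome 15 ran from 0.29 to 0.40 and chromosome 18 from -0.46 to -0.29. Of 169 called genes that were named by rule or stood in a list, 45 lost the call under some alternative and 15 when 1 array was left out. The mean of probe sets ended 25 of these calls, a pseudocount of 64 ended 23, a floor of 64 ended 15, the deposited scaling 8, median centring 7 and scaling to the hybridization controls 6; the cause was not tested. With a floor of 64, Ehf and Hoxb13 were 0.0, Dkk2 0.03 and Plagl1 0.26. Under the deposited scaling Dcn was -0.97, Hmox1 -0.96 and Dusp6 -0.98, and with probe sets averaged Vldlr was 0.94, Stc2 0.88 and Mfap5 -0.75. Genes with signals near background in both lines could not be compared.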
